A study of Mus musculus with 6 samples.

Results

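The costimulatory genes described here are 10 genes of the CD28 and tumor necrosis factor (TNF) families, taken by symbol from a fixed list. They were compared between libraries labelled as AMPK KO and WT CD4 T cells. They comprise 2 receptors of the CD28 family (Cd28 and Icos), 4 TNF receptors (Tnfrsf4, Tnfrsf9, Tnfrsf18 and Cd27) and 4 TNF ligands (Cd40lg, Tnfsf8, Tnfsf11 and Tnfsf14). All 10 were among the 23282 genes listed and among the 11279 that passed the filter on low values, a mean log2 value of at least 1 over the 6 samples.

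A naive T cell needs a signal through its antigen receptor and a costimulatory signal, classically given by CD28 when it binds CD80 or CD86 on an antigen-presenting cell. The receptors ICOS, OX40, 4-1BB, GITR and CD27 add later or sustaining signals. CD28 and ICOS act in large part through phosphoinositide 3-kinase, and the TNF receptors act through TRAF adapters and NF-kappaB. CD40 ligand, CD30 ligand, RANKL and LIGHT run the other way, as ligands that T cells show to B cells, dendritic cells, stroma and other cells.

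CD4 T cells were isolated from the spleen and lymph nodes of C57BL/6 mice with magnetic beads or a cell sorter, a step meant to remove B cells and myeloid cells. The AMPK KO group carried Prkaa1 fl/fl together with CD4Cre, and the WT group carried Prkaa1 fl/fl without Cre, so the floxed alleles were common to both groups. The CD4 promoter drives Cre from the thymus onward, so that deletion is not restricted to mature CD4 cells. Prkaa1 encodes the alpha1 catalytic subunit of AMPK, an energy-sensing kinase. The mice were given as female and 6 to 8 weeks old unless specified otherwise. The cells rested for 1 h and were then stimulated with antibodies to CD3 and CD28, each at 2 µg/mL. The labels give 24 h of stimulation and the study's methods 6 h, so the time is uncertain. There were 3 samples in each group, stated to be biologically independent, and the values were 3′ tag counts (QuantSeq) given as log2 of the TMM-normalized CPM (counts scaled to the library size) plus 1. Every log2 fold change below is AMPK KO minus WT on this scale, which understates changes of low genes.

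The reads recovered from the values summed to about 9580000 to 10170000 per WT library and about 10520000 to 11190000 per AMPK KO library. Rn45s, the ribosomal RNA precursor, took 20.7 to 24.9% of WT reads and 8.48 to 10.8% of AMPK KO reads. Prkaa1 had values of 4.64, 5.24 and 4.86 in WT and 4.08, 4.72 and 4.67 in AMPK KO, groups that overlapped (log2 fold change -0.43, SE 0.25, adjusted p = 0.36 in limma). The sources used here do not say which exons were floxed, and reads from the 3′ end outside the deleted part would not check it. Xist, the RNA of the inactive X chromosome, had 8 to 32 reads in WT libraries and 1998 to 2876 in AMPK KO libraries, and the Y-linked gene Ddx3y had 3158 to 3462 and 1296 to 1840. WT libraries thus held Ddx3y reads with few Xist reads, and AMPK KO libraries held many of both. Y-linked reads in every library do not match mice given as female, so the sex of the mice is uncertain. The groups differed in X- and Y-linked transcripts. A difference in sex between them and the genotype cannot be told apart in any result below. AMPK KO sample 2 stood apart from the others of its group: its squared differences from samples 1 and 3 were, at the median gene, 17.5 and 23.7 times the counting noise, against 9.57 between samples 1 and 3. In WT, sample 2 was likewise the farther one, at 14.0 and 13.6 times against 9.88. The cell type markers Cd3d, Cd3e, Cd3g and Cd4 were present in every library, as were Cd8a and Cd8b1, the CD8 coreceptor chains, which a pure CD4 T cell preparation would lack. Cd4 had log2 values of 6.72, 6.83 and 6.53 in WT and 6.55, 6.31 and 6.14 in AMPK KO. Cd8b1 had 7.17, 7.61 and 7.58 in WT and 7.59, 7.98 and 7.92 in AMPK KO, and Cd8a had 6.48, 6.71 and 6.86 against 7.04, 6.95 and 7.08. The CD8 transcripts were thus not at background. The Cd8b1 value was above the Cd4 value in every library. The Cd8a value was above the Cd4 value in WT sample 3 and in every AMPK KO library. The part of the CD8 transcripts in the results below was not tested.

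Of the 10 genes, 4 passed the adjusted threshold of 0.05 in limma. Tnfsf14 (LIGHT) and Tnfrsf9 (4-1BB) rose in AMPK KO cells, and Cd40lg (CD40 ligand) and Cd28 fell. Of all 11279 genes tested, 5.65% passed, 2.54% as higher and 3.1% as lower in AMPK KO. The groups did not overlap for 7 of the 10 genes, against 25.6% of all genes tested. The median log2 fold change was -0.04 over the 10 genes and 0.02 over all genes. At an unadjusted p under 0.05 in limma there were 5 of the 10 genes and 2405 of the 11279 genes tested.

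**Figure D1:**
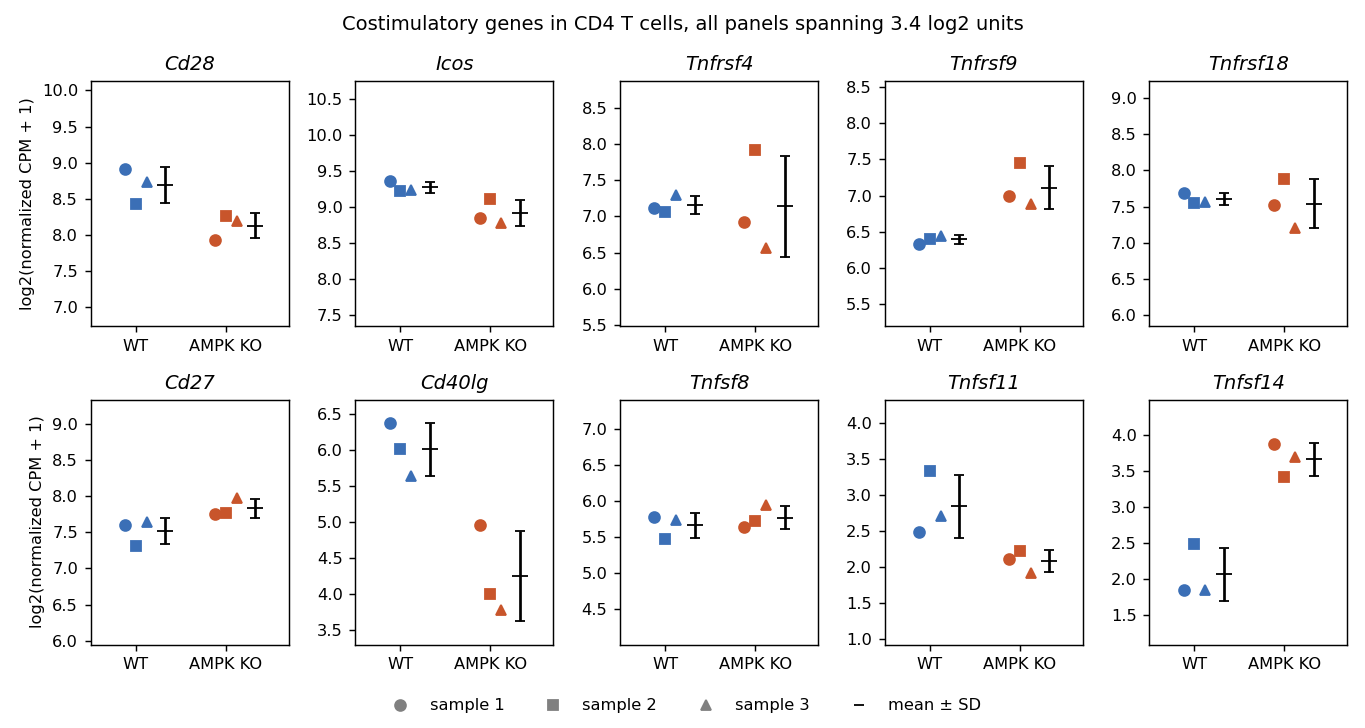
Value of each costimulatory gene in every sample, as log2 of normalized CPM plus 1; each panel spans the same number of log2 units on its own range, symbols mark the samples of a group, and bars give the mean ± SD (n = 3). Cd40lg and Tnfsf14 show the widest separation between WT and AMPK KO, and Tnfrsf4 and Tnfrsf18 overlap, with AMPK KO sample 2 highest.

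The CD28 family was compared between the groups first. Cd28, the receptor that the stimulating antibody itself engages, had values of 8.91, 8.43 and 8.73 in WT and 7.93, 8.26 and 8.18 in AMPK KO. Every AMPK KO sample lay below every WT sample, although AMPK KO sample 2 and WT sample 2 were only 0.17 apart. Cd28 fell by 0.56 on the log2 scale (SE 0.16, 95% interval -0.90 to -0.23, adjusted p = 0.047 in limma), to 67.6% of WT. The call sat at the threshold: the adjusted p was 0.053 with a pseudocount of 0.25, 0.052 with limma-voom on the recovered reads, and ranged from 0.009 to 0.24 when 1 library was left out. The reads for Cd28 numbered 3433 to 4433 in WT and 2877 to 3442 in AMPK KO libraries.

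Icos, the inducible receptor that binds ICOS ligand and serves follicular helper T cells, gave 9.36, 9.22 and 9.24 in WT and 8.85, 9.11 and 8.78 in AMPK KO. The groups did not overlap, with a gap of 0.10 between WT sample 2 and AMPK KO sample 2. The log2 fold change was -0.36 (SE 0.14, 95% interval -0.65 to -0.06) and did not pass the adjusted threshold (adjusted p = 0.15 in limma). Without AMPK KO sample 2 it was -0.46 and passed (adjusted p = 0.014).

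T cell markers differed between the groups as well. Among 9 markers tested, Cd3g (log2 fold change -0.93, adjusted p = 0.0058 in limma) and Cd3e (-0.66, 0.024), both chains of the CD3 complex, fell, whereas Thy1, a glycoprotein of the T cell surface, rose (0.50, adjusted p = 0.048), and the median was -0.31. The summed level of the marker list ranged from 1902 to 2008 normalized CPM in WT and from 1557 to 2017 in AMPK KO. The calls of Cd3g, Cd3e and Thy1 held in 13, 8 and 6 of 15 alternatives. When each value was taken relative to the mean of these markers in its library, an alternative chosen after seeing the data, Cd28 no longer passed (log2 fold change -0.30, adjusted p = 0.21) and Icos was at -0.09 (adjusted p = 0.67). That scaling moved the median of all genes to 0.28. In bulk samples, fewer cells of a type and less RNA per cell cannot be told apart. The part of T cell content in these results was not tested.

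Cd28, Ctla4 and Icos lie in this order on the plus strand of chromosome 1 (mm10), Cd28 at chr1:60716800-60773359 and Icos at chr1:60977927-61000320, with 114 kb between Cd28 and Ctla4 and 62.1 kb between Ctla4 and Icos. Ctla4, the inhibitory receptor that competes with CD28 for CD80 and CD86, was at 6.69, 6.85 and 6.76 in WT and 7.67, 6.75 and 8.12 in AMPK KO. Samples 1 and 3 of AMPK KO were above all WT samples and sample 2 was within their range (log2 fold change 0.75, SE 0.25, adjusted p = 0.097 in limma). Ctla4 passed in 1 of 15 alternatives (adjusted p 0.00022 to 0.30 in limma or limma-voom). Within each library, Cd28 minus Ctla4 was 1.58 to 2.22 in WT and 0.07 to 1.51 in AMPK KO. Icos minus Ctla4 was 2.37 to 2.67 in WT and 0.66 to 2.36 in AMPK KO. Both differences were lower in every AMPK KO library, and the exact permutation p of 0.10 (two-sided, 3 against 3) is the smallest this design allows. AMPK KO sample 2 was close to the lowest WT library in both.

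**Figure D2:**
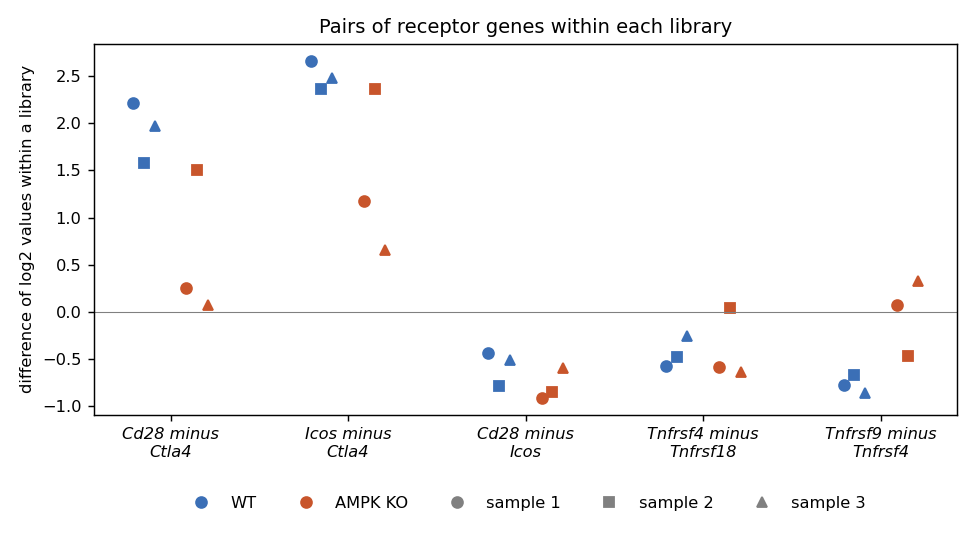
Difference between the log2 values of pairs of receptor genes in the same library (vertical axis, log2 units) for 3 WT and 3 AMPK KO libraries, with symbols for the samples. Cd28 and Icos lie closer to Ctla4 in AMPK KO libraries than in WT libraries, with sample 2 of AMPK KO nearest to WT, and Tnfrsf9 lies higher relative to Tnfrsf4.

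Of the 4 TNF receptors, Tnfrsf9 passed the threshold. Tnfrsf9 encodes 4-1BB, an activation-induced receptor that signals through TRAF adapters. Its values were 6.33, 6.40 and 6.44 in WT and 6.99, 7.45 and 6.89 in AMPK KO. The WT samples were tightly grouped, and each AMPK KO sample was at least 0.45 above the highest of them. Tnfrsf9 rose by 0.72 on the log2 scale (SE 0.17, 95% interval 0.36 to 1.08, adjusted p = 0.025 in limma), a fold of 1.65. The reads numbered 732 to 833 in WT and 1398 to 1864 in AMPK KO. The log2 fold change stayed between 0.55 and 0.83 when 1 library was left out, but the adjusted p rose to 0.13, 0.10 and 0.080 on leaving out WT sample 1, WT sample 3 or AMPK KO sample 1. Tnfrsf9 lies at chr4:150914562-150946102 on the plus strand and overlaps Camta1, a gene of the opposite strand with 15 to 56 reads per library.

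The promoter windows of Tnfrsf9 and Tnfsf14, the 2 genes that rose, are shown because they hold the only AP-1 matches among the members with a window. The windows came from RefSeq (GRCm38.p6, the mm10 assembly) and span 250 bases before to 50 after an annotated start. Of the 10 genes 7 had one; Cd28, Icos and Cd40lg, which include both genes that fell, were not searched. AP-1, NFAT and NF-kappaB motifs were searched on both strands, as TGANTCA for AP-1, the core GGAAA for NFAT and by name for NF-kappaB. All are factors activated through the antigen receptor and CD28. Capitals mark AP-1 and NF-kappaB matches. For Tnfrsf9 the second of its annotated starts is printed, chr4:150927749-150928048 on the plus strand, which lies inside the gene.

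Tnfrsf9: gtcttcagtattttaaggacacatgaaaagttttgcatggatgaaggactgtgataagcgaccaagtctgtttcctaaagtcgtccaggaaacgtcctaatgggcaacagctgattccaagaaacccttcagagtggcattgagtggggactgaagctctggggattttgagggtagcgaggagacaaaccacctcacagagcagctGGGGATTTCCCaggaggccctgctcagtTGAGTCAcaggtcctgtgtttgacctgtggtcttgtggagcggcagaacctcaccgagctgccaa

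This window held an AP-1 match 15 bases before the start and a pair of overlapping NF-kappaB matches beginning 43 and 42 bases before it, which also overlap an NFAT core match at 38 bases before it. The other NFAT core matches, of 3 in all, began 180 and 163 bases before the start. The window of the first annotated start, chr4:150919905-150920204, held neither AP-1 nor NF-kappaB. The Tnfsf14 window is chr17:57194132-57194431, written from the minus strand on which the gene lies.

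Tnfsf14: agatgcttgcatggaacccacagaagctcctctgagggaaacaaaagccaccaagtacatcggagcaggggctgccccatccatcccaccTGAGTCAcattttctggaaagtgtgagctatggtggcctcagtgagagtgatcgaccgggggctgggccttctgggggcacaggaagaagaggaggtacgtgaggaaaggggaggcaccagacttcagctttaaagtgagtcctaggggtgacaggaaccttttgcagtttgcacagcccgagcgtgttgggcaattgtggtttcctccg

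It held an AP-1 match 160 bases before the start and 4 NFAT core matches, and no NF-kappaB match. Of 32851 windows of the same length, 7.81% held AP-1, 61.3% the NFAT core and 4.51% NF-kappaB. A match describes letters in a window and says nothing of binding.

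Tnfrsf4 encodes OX40, which prolongs the survival of activated T cells and is high on regulatory T cells. It gave 7.11, 7.07 and 7.30 in WT and 6.93, 7.92 and 6.57 in AMPK KO. The AMPK KO samples lay on both sides of the WT samples, with sample 2 highest and sample 3 lowest (log2 fold change -0.02, 95% interval -0.56 to 0.52, adjusted p = 0.97 in limma). Without AMPK KO sample 3 the log2 fold change turned to 0.26 and without sample 2 it was -0.41 (adjusted p = 0.096), neither past the threshold. Tnfrsf18 encodes GITR, another receptor that regulatory T cells carry at high level, and lies 9.55 kb from Tnfrsf4 on the plus strand of chromosome 4. It gave 7.69, 7.55 and 7.56 in WT and 7.52, 7.88 and 7.21 in AMPK KO. Again sample 2 was the highest and sample 3 the lowest of AMPK KO, and the groups overlapped (log2 fold change -0.06, 95% interval -0.42 to 0.30, adjusted p = 0.87).

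Tnfrsf9, on the same chromosome, also had its highest AMPK KO value in sample 2 and its lowest in sample 3, but all 3 were above WT. Tnfrsf9 minus Tnfrsf4 within a library was -0.86 to -0.67 in WT and -0.47 to 0.32 in AMPK KO, higher in each of the 3 AMPK KO libraries (exact permutation p = 0.10, two-sided, the smallest possible). All 8 markers of regulatory T cells were tested. Gpr83, a G protein-coupled receptor, fell (log2 fold change -1.38, adjusted p = 0.039 in limma), and the other 7 did not pass. The call of Gpr83 was near the threshold and held in 5 of 14 alternatives (adjusted p 0.027 to 0.14). Foxp3, the defining factor of these cells, had values of 5.11, 5.21 and 5.64 in WT and 5.26, 5.06 and 5.04 in AMPK KO (log2 fold change -0.20, adjusted p = 0.63). The summed level of the list was 215 to 257 normalized CPM in WT and 190 to 207 in AMPK KO. Per total reads, without the TMM factor, the sums were 204 to 238 and 194 to 223 CPM and overlapped. The part of regulatory T cells in the values of Tnfrsf4, Tnfrsf9 and Tnfrsf18 was not tested.

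Cd27 encodes a receptor that naive T cells already carry and that binds CD70. Its values were 7.60, 7.31 and 7.65 in WT and 7.75, 7.77 and 7.98 in AMPK KO. All AMPK KO samples were above all WT samples, by a gap of 0.11. The log2 fold change was 0.32 (SE 0.15, 95% interval -0.00095 to 0.63) and did not pass (adjusted p = 0.24 in limma). It passed only relative to the T cell markers (log2 fold change 0.58, adjusted p = 0.041). Cd27 overlaps Vamp1 on the opposite strand, which had 215 to 387 reads, and whether the counting used strand is not given in the sources used here.

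**Figure D3:**
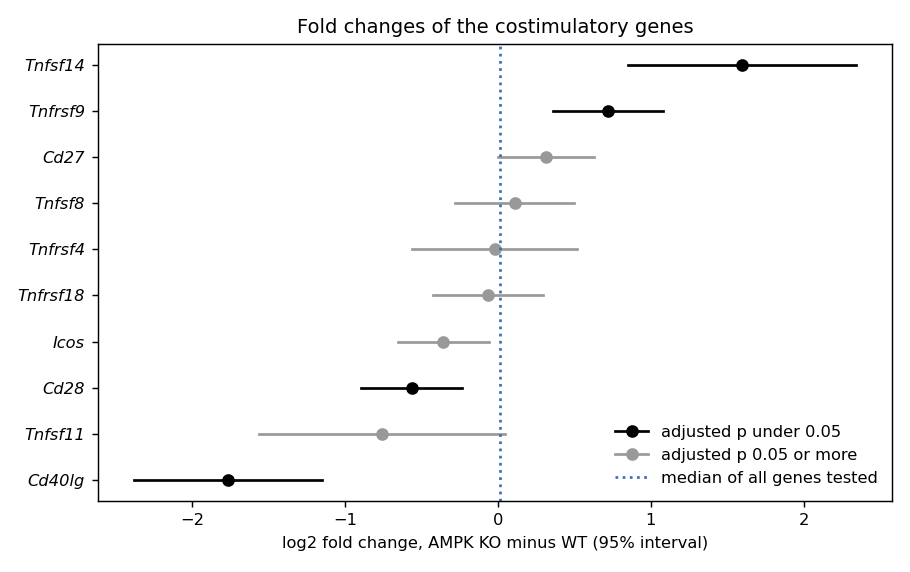
Log2 fold change of each costimulatory gene, AMPK KO minus WT, with its 95% interval from limma (horizontal axis, log2 units); black marks an adjusted p under 0.05 and the dotted line the median of all genes tested. Cd40lg at -1.76 and Tnfsf14 at 1.60 lie at the ends, and the intervals of Cd27, Tnfsf8, Tnfrsf4, Tnfrsf18 and Tnfsf11 span 0.

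The ligands held the largest changes among the members. Cd40lg, through which CD4 helper cells license B cells and dendritic cells by way of CD40, had values of 6.37, 6.01 and 5.64 in WT and 4.95, 4.0 and 3.78 in AMPK KO. The corresponding reads were 753, 636 and 431 in WT and 355, 161 and 151 in AMPK KO. All AMPK KO samples were at least 0.68 below the lowest WT sample. Cd40lg fell by 1.76 on the log2 scale (SE 0.29, 95% interval -2.38 to -1.15, adjusted p = 0.0030 in limma), to 29.4% of WT. Its adjusted p stayed below 0.05 in 14 of 15 alternatives and was 0.052 without WT sample 1, where the log2 fold change was -1.58.

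Cd40lg is X-linked, at chrX:57212143-57224042 on the plus strand. Of the 343 genes of the X chromosome tested, 8 passed as higher and 10 as lower in AMPK KO, the median was -0.01, and Cd40lg had the lowest log2 fold change of the 343. The neighbours Gm14718 (log2 fold change 0.81, adjusted p = 0.37 in limma) and Arhgef6 (-0.24, adjusted p = 0.68) did not pass. As given above, Xist and Ddx3y differed between the groups, and their part in the Cd40lg result was not tested.

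Tnfsf14 encodes LIGHT, a ligand of HVEM and of the lymphotoxin beta receptor. It was a low gene, with 24, 46 and 23 reads in WT and 161, 104 and 142 in AMPK KO, or values of 1.85, 2.49 and 1.85 against 3.87, 3.42 and 3.69. The lowest AMPK KO sample was 0.93 above the highest WT sample. Tnfsf14 rose by 1.60 on the log2 scale (SE 0.35, 95% interval 0.85 to 2.35, adjusted p = 0.017 in limma), a fold of 3.03. With a pseudocount of 0.25 the log2 fold change was 1.80, and with limma-voom 1.85. It stayed between 1.49 and 1.81 when 1 library was left out, but did not pass on leaving out WT sample 1 (adjusted p = 0.084), WT sample 3 (0.080) or AMPK KO sample 1 (0.11).

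Myeloid and dendritic cells also express Tnfsf14, and part of their markers rose as it did, although the isolation of CD4 T cells was meant to remove these cells. The 13 myeloid markers, all of them tested, summed to 332 to 349 normalized CPM in WT and 589 to 826 in AMPK KO, and none was at 0 in all libraries. Of these, 4 passed, all higher: Cd14, the coreceptor for lipopolysaccharide (log2 fold change 1.87, adjusted p = 0.0031 in limma), Cst3, a protease inhibitor high in dendritic cells (1.21, 0.010), Cd68, a lysosomal protein of macrophages (1.10, 0.0059), and Csf1r, the receptor for macrophage colony-stimulating factor (0.97, 0.020). Csf1r had log2 values of 7.65, 7.21 and 7.49 in WT and 8.32, 9.01 and 7.94 in AMPK KO. These were above the Cd4 value in every library. Cst3 was above Cd4 in AMPK KO libraries only, and Cd14 and Cd68 were below it in every library. Over the alternatives, 1 to 6 of the 13 markers passed, each of them higher. On leaving out WT sample 1, WT sample 3 or AMPK KO sample 1, 2 passed. The part of myeloid cells in the Tnfsf14 value was not tested. C3, the complement component encoded 9.79 kb from Tnfsf14, did not pass (log2 fold change 1.06, adjusted p = 0.22).

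Tnfsf11 encodes RANKL, which acts on dendritic cells and osteoclast precursors, and was also low. Its reads were 42, 90 and 49 in WT and 39, 39 and 33 in AMPK KO, or values of 2.47, 3.32 and 2.71 against 2.10, 2.21 and 1.92. The groups did not overlap on the normalized scale, but WT sample 2 was far above the others (log2 fold change -0.76, SE 0.38, 95% interval -1.56 to 0.04, adjusted p = 0.26 in limma). Without WT sample 2 the log2 fold change was -0.52. Tnfsf8, which encodes the ligand of CD30, gave 5.77, 5.47 and 5.73 in WT and 5.64, 5.71 and 5.95 in AMPK KO. The groups overlapped, and the log2 fold change was 0.11 (95% interval -0.28 to 0.50, adjusted p = 0.78).

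**Figure D4:**
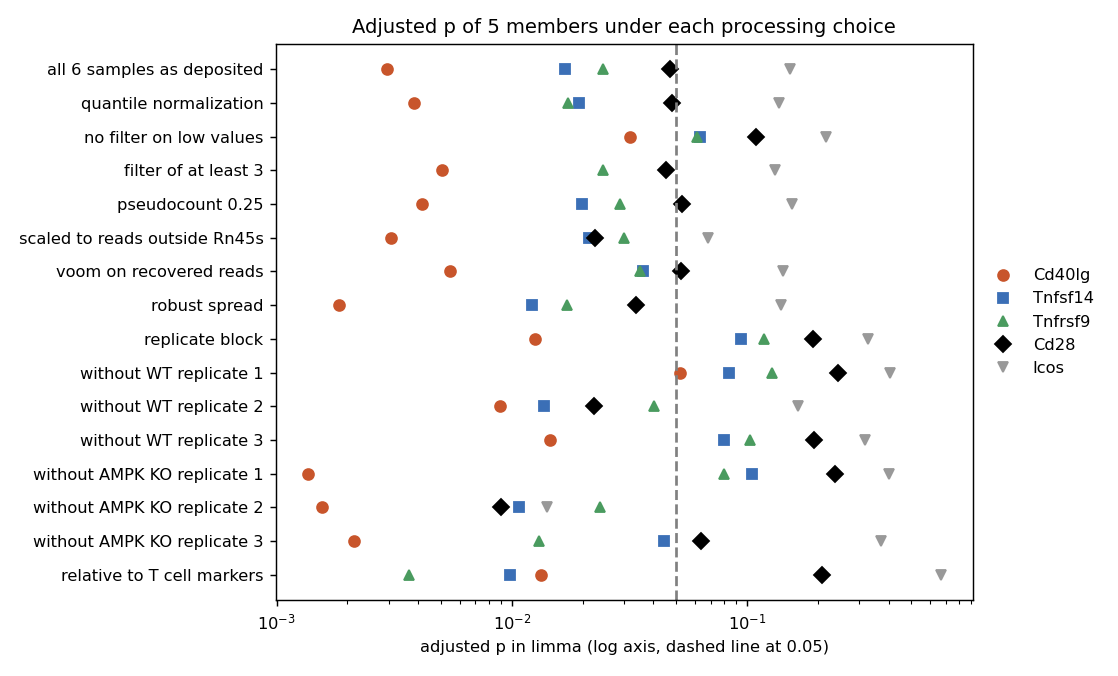
Adjusted p in limma of Cd40lg, Tnfsf14, Tnfrsf9, Cd28 and Icos (horizontal log axis, dashed line at 0.05) under the deposited scaling with all 6 samples and under each other processing choice (vertical axis); Tnfsf14 has no point where a filter of at least 3 removed it. Cd40lg is left of the line except without WT sample 1, and Cd28 is left of it in 6 of the 15 other choices.

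The chromosomal neighbours of the members were compared in the same fit. Of 17 tested neighbours that were not members, 0 passed in limma and 0 in limma-voom, and 3 had an unadjusted p under 0.05 in each. Their log2 fold changes ran from -0.34 to 1.06.

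The binding partners of the members are mostly carried by antigen-presenting cells. Of 13 partners, 6 were tested and 7 were below the filter (Tnfsf4, Tnfsf9, Tnfsf18, Cd70, Tnfrsf8, Tnfrsf11b and Tnfrsf14), Tnfrsf11b with 0 reads in every library. Cd86, the shared ligand of CD28 and CTLA-4, rose from 4.28, 4.34 and 4.52 in WT to 5.64, 5.62 and 5.67 in AMPK KO (log2 fold change 1.27, SE 0.20, adjusted p = 0.0021 in limma). It was the 1 partner past the threshold. Cd86 is expressed by B cells and myeloid cells, which the isolation was meant to remove and whose lists are given here and above, and their part in its value was not tested. Of 9 B cell markers tested, 0 passed in limma or limma-voom and 1 had an unadjusted p under 0.05, the largest values being -0.48 for Fcer2a, the low-affinity IgE receptor, and 0.47 for Blk, a kinase of the B cell receptor. The B cell list summed to 317 to 337 normalized CPM in WT and 301 to 365 in AMPK KO.

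Downstream of the receptors, 27 adapters, kinases and NF-kappaB components were tested. In the main comparison none rose and 2 fell, or 7.41% against 5.65% of all genes tested. Rel, the NF-kappaB subunit c-Rel, had values of 7.08, 6.61 and 6.99 in WT and 6.14, 6.03 and 5.93 in AMPK KO (log2 fold change -0.86, SE 0.17, adjusted p = 0.0095 in limma). Pik3r1, a regulatory subunit of phosphoinositide 3-kinase, had 7.96, 7.66 and 7.82 against 7.23, 7.19 and 7.27 (-0.59, SE 0.14, adjusted p = 0.027). For both genes every AMPK KO sample was below every WT sample. The median of the 27 was 0.09. Rel passed in 11 and Pik3r1 in 10 of 15 alternatives. The counts of the list were not stable: 4 rose and 2 fell without AMPK KO sample 2, 3 rose and 0 fell relative to T cell markers, and 0 passed on leaving out WT sample 1 or WT sample 3.

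Related surface molecules were examined with them. Of 17 other TNF family genes tested, Tnfrsf21 (death receptor 6) rose (log2 fold change 1.62, adjusted p = 0.030 in limma) and none fell. This 1 of 17 (5.88%) is close to the share of all genes, Tnfrsf21 had 9 to 25 reads per WT library, and its call held in 7 of 14 alternatives (not with limma-voom, adjusted p = 0.069). Of 15 other costimulatory and adhesion receptors, Cd44, the hyaluronan receptor of memory T cells, rose (1.17, adjusted p = 0.0036), as did Cd81, a tetraspanin (0.82, 0.015), in 13 and 11 of 15 alternatives. Of 6 inhibitory receptors, Pdcd1, which encodes PD-1, rose (1.69, adjusted p = 0.0067), as did Havcr2, which encodes TIM-3 (1.3, 0.044). The call of Pdcd1 held in 14 of 15 alternatives and that of Havcr2 in 4 of 14 (adjusted p 0.022 to 0.17). Pdcd1 was at 3.12, 3.54 and 2.41 in WT and 4.82, 4.70 and 4.62 in AMPK KO, with no overlap. Lag3 and Tigit were below the filter.

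The activation state was described by 16 further genes. Egr3 (log2 fold change -1.34, adjusted p = 0.00072 in limma) and Egr1 (-0.76, 0.0059), immediate early factors induced through the antigen receptor, fell, and Tfrc, the transferrin receptor, rose (0.71, 0.029). These calls held in 15, 12 and 10 of 15 alternatives. The counts of the list moved: 5 rose and 4 fell without AMPK KO sample 2, and 0 rose and 1 fell on leaving out WT sample 1. Il2 was below the filter, with 3 to 8 reads per library. Of 10 genes of resting and naive T cells, 5 fell and none rose. The 4 largest changes were in Tcf7 (-1.66, adjusted p = 0.00072) and Lef1 (-1.03, 0.0016), partner factors of naive cells, Bach2, a repressor of effector genes (-0.80, 0.046), and Il7r, the interleukin 7 receptor (-0.68, 0.0098). Tcf7 and Lef1 passed in all 15 alternatives, Il7r in 10 and Bach2 in 6. Only 2 of the 10 passed on leaving out WT sample 1, WT sample 3 or AMPK KO sample 1. Relative to T cell markers, 1 of the 10 rose and 2 fell.

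Other cell types were followed by their markers. Of 2 CD8 markers, 0 passed in limma or limma-voom and 2 had an unadjusted p under 0.05 (Cd8b1 0.38, Cd8a 0.34). Of 5 plasma cell markers, Jchain, the joining chain of IgM and IgA, rose (log2 fold change 2.60, adjusted p = 5.77e-08 in limma). Of 7 neutrophil markers, the granule genes Ltf (-1.54, adjusted p = 0.028) and Ngp (-1.53, 0.0019) fell. Of 5 NK markers, Klrk1, the NKG2D receptor, rose (1.62, adjusted p = 0.014). Jchain and Ngp passed in all 15 alternatives, Klrk1 in 10 of 15 and Ltf in 7 of 14. The summed levels in WT and AMPK KO were 231 to 305 and 321 to 376 normalized CPM for CD8 markers, 788 to 902 and 513 to 756 for neutrophils, and 58.1 to 82.9 and 109 to 118 for NK cells. Per total reads the neutrophil sums overlapped, at 749 to 839 and 552 to 772 CPM. The plasma cell markers summed to 91.5 to 100 and 383 to 461 normalized CPM, of which Jchain made up most: without it the sums were 33.9 to 39.9 and 56.4 to 69.7. Their part in the results of the members was not tested.

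**Figure D5:**
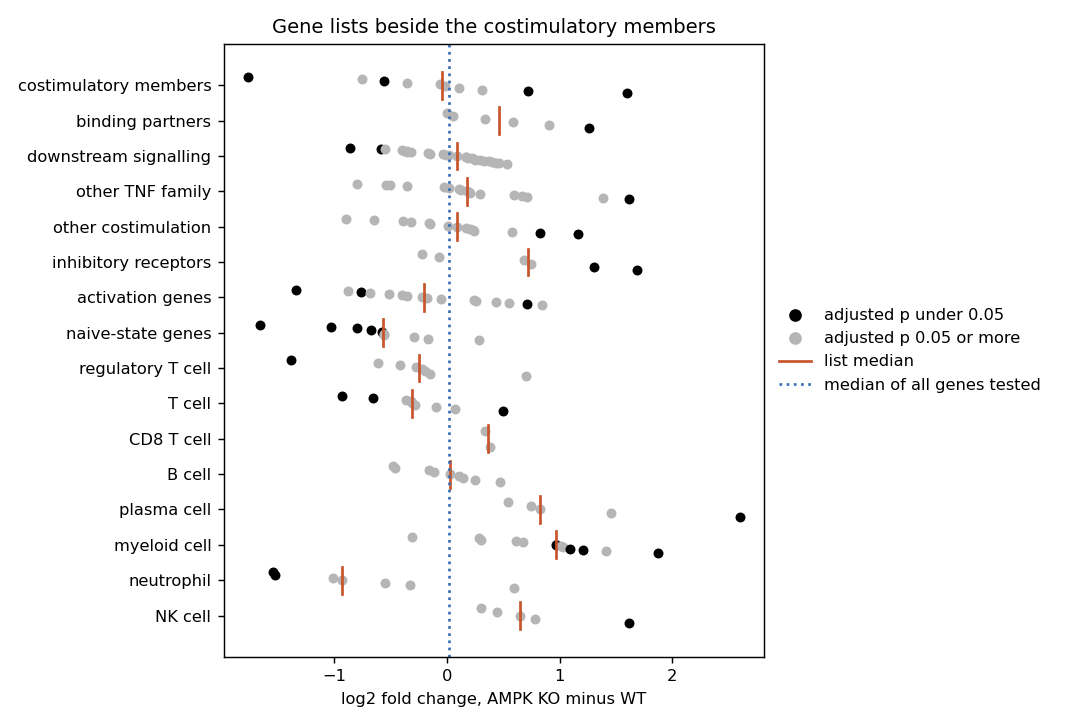
Log2 fold change of every tested gene of each list, AMPK KO minus WT (horizontal axis, log2 units); black points have an adjusted p under 0.05 in limma, the vertical bar is the list median, and the dotted line the median of all genes tested. The costimulatory members spread to both sides, with a median of -0.04, while the myeloid list has a median of 0.97 and the naive-state list of -0.57.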

How the data were processed

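Per the labels and the study's methods, RNA was extracted with TRIzol, and 500 ng per sample was made into QuantSeq 3′ libraries. The submitters' processing notes name Bowtie2, bedtools and mm10. The annotation and the use of strand are not given in the sources used here. The deposited values are log2 of TMM-normalized CPM plus 1, made by the authors from counts, 1 column per sample. They are not counts, so the main test was not a count model. Low values fell on steps, and 100% of those up to 100 reads lay within 0.1 of a whole read, which gave the reads quoted. The 3 decimals fix a larger value only to within 0.035%, so totals and high counts are approximate.

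Genes with a mean log2 value of at least 1 were fitted by genotype with limma 3.58.1 (lmFit, eBayes with trend) in R 4.3.3, with Benjamini-Hochberg adjustment over all 11279 genes and a threshold of 0.05. On simulated data for this comparison, the fit recovered 197 of 200 genes changed 2-fold (11479 genes run, 9 false calls) and 200 of 200 changed 4-fold (11490 genes run, 2 false calls). The simulation gave every gene the same spread between replicates and held no outlying library. It changed only genes well above the filter, a level that Tnfsf11 and Tnfsf14 did not reach. It therefore does not show recovery for low genes or for genes of uneven spread. Summed list levels are in normalized CPM, the recovered reads over the authors' TMM-scaled library size, which is below the read total in WT and above it in AMPK KO. Alternatives changed the scaling, filter, pseudocount, test, pairing or samples. Genes named outside the members are those past the threshold, at most the 4 largest changes per list, or the 2 largest where a list has none, together with Prkaa1, Ctla4, Rn45s and chromosomal neighbours of members as checks. Foxp3, Cd3d, Cd4, Il2, Xist, Ddx3y, Vamp1 and genes below the filter were named after their values were seen. The members and lists were chosen with earlier results of these data known. No sample was left out. Gene positions came from GENCODE vM21 (mm10). Sequences were matched by symbol. Same-numbered samples were not treated as pairs in the main fit. The sources used here do not say whether they were handled together.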

Additional observations from a re-analysis of the deposited data

How the results depend on the processing

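The direction of each of the 4 genes past the threshold was the same in every alternative that tested it. Of the 10 members, 1 passed (Cd40lg) without the filter on low values and 1 (Cd40lg) with the replicate block. Leaving out 1 library gave 0 (WT sample 1 out) to 5 (AMPK KO sample 2 out, adding Icos) members, and 1 with WT sample 3 or AMPK KO sample 1 out. Of the other lists' genes, 28 passed, against 18 with no filter, 8 with the replicate block, and 9 to 47 with 1 library out. Of all genes, 637 passed, against 308 with no filter, 102 with the replicate block, and 127 to 1243 with 1 library out (WT sample 1 gave 127, WT sample 3 gave 133, AMPK KO sample 1 gave 173, and AMPK KO sample 2 gave 1243). The cause was not tested.

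The labels link samples of the 2 groups only by a replicate number. Deviations of same-numbered samples correlated at -0.08, -0.32 and -0.16, and no sample correlated best with its own number. With 3 samples per group, these correlations cannot decide whether the numbers pair the samples.

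Tnfrsf4 turned positive with quantile normalization (0.0484) and relative to T cell markers (0.25, an alternative chosen after seeing the data), and ran from -0.41 to 0.26 with 1 library out. Tnfrsf18 turned positive with quantile normalization (0.0129) and relative to T cell markers (0.20), and ran from -0.24 to 0.10 with 1 library out. Neither passed in any of these. The share of calls that were higher in AMPK KO was 45.1%, against 32.5% of 722 scaled to reads outside Rn45s, 89.0% of 860 relative to T cell markers, and 41.8% to 55.9% with 1 library out. Tnfsf11 and Tnfsf14 were not tested under a filter of at least 3. With 23 to 46 reads per WT library, Tnfsf14 rests on few counts.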
